A study of Mus musculus with 8 samples.

Results

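The 10 genes described here make up the MHC class II presentation system of B cells in the mouse: the antigen-presenting chains H2-Aa, H2-Ab1 and H2-Eb1, the invariant chain gene Cd74, the peptide-loading chaperone genes H2-DMa, H2-DMb1 and H2-DMb2, the genes H2-Oa and H2-Ob of its inhibitor, and the transactivator gene Ciita. They were taken by name from a count table of 24746 genes, and all 10 were found in it and passed the filter on low counts. The libraries came from bone marrow cells sorted as B1a B cells from mice 10 to 12 weeks old. In the 4 miR-15 dKO mice, genotype miR-15a/bfl/fl Vav-Cre, both miR-15/16 clusters are floxed and removed by Cre. The 4 control mice, genotype miR-15a/b+/+ Vav-Cre, have unaltered clusters, and both groups carry the Cre transgene. The Vav promoter drives Cre in all blood-forming cells, so the deletion is not limited to B cells. RNA was amplified by SMART-seq, which copies full-length transcripts from small samples, and sequenced to 25565090 to 34954230 counts per library.

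MHC class II molecules are pairs of an alpha and a beta chain that show peptides from endosomes to CD4 T cells, and B cells use them to obtain T cell help. Cd74 encodes the invariant chain, which fills the peptide groove of newly made class II molecules and guides them to endosomes. There H2-DM removes the last remnant of the invariant chain and loads peptide, and H2-DO, which is made mainly in B cells, holds H2-DM in check. Ciita does not bind DNA itself. It is recruited to a shared promoter module of an X box and a Y box, bound by RFX and NF-Y factors, and sets how much class II is transcribed.

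The deleted microRNAs are shown first, since they define the genotype. RefSeq (GRCm38.p6) places miR-15a at chr14:61632075-61632096 on the minus strand and miR-15b at chr3:69009775-69009796 on the plus strand, each beside a copy of miR-16 (chr14:61631936-61631957 and chr3:69009918-69009939). Capitals mark the seed, bases 2 to 8, which is the same in all of them.
miR-15a-5p: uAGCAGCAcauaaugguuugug
miR-15b-5p: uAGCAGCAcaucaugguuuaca
miR-16-5p: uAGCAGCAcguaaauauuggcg
A match to this seed occurred in the longest annotated 3′ UTR of 2646 of 10677 tested genes (24.8%, GENCODE M21, GRCm38). Of the 10 class II genes, Ciita had 1 match and the other 9 had none. The Ciita match began at base 414 of a 3′ UTR of 2679 bases on chromosome 16 and is printed with its surroundings, the match in capitals.
Ciita 3′ UTR site: gcatgtcttccTGCTGCTcccaacagggc
The median 3′ UTR over the tested genes was 1136 bases, and the UTRs of H2-Aa, H2-Ab1, H2-DMb1, H2-DMb2, H2-Oa and Cd74 were 231 to 493 bases long. H2-Eb1 had 790 bases, and H2-DMa (1865 bases) and H2-Ob (1788 bases) were above the median, also without a match. A match is a description of sequence and does not show that the transcript is a target.

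Promoters are printed because they carry the module through which these genes are known to be switched on together. RefSeq promoters of 300 bases were matched for 7 of the 10 genes, and H2-Ab1, Cd74 and Ciita were not matched. The Y box letters TGATTGG, searched on both strands, were present in 6 of these 7 genes, the exception being H2-DMa, and in 7.82% of all 32851 promoters. The X box letters AAC and ATGATG with 2 bases of any kind between them were present in 4 of the 7 genes and in 0.137% of all promoters, and both motifs together occurred in 9 promoters of the whole table, 4 of them H2-Eb1, H2-DMb1, H2-DMb2 and H2-Ob. The letters were chosen after these promoters had been read. The 6 windows below run 5′ to 3′ along the gene on chromosome 17 of GRCm38.p6, with both motifs in capitals.
H2-Aa, chr17:34287849-34287933, minus strand: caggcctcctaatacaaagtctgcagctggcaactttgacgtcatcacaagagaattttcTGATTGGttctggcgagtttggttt
H2-Eb1, chr17:34305746-34305830, plus strand: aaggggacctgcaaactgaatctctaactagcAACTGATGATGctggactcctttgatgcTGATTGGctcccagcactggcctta
H2-DMb1, chr17:34153068-34153152, plus strand: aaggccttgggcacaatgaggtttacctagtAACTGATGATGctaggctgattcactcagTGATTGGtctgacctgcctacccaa
H2-DMb2, chr17:34145097-34145181, plus strand: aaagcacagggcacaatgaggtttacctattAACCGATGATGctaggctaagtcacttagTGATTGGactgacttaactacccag
H2-Oa, chr17:34092274-34092358, plus strand: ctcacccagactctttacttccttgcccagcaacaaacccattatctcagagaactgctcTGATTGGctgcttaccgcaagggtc
H2-Ob, chr17:34238786-34238870, plus strand: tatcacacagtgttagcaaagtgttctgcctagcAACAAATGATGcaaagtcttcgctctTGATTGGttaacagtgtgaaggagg
The Y box letters began 45 to 92 bases before the start site. Where both motifs were found, they began 26 (H2-Ob), 28 (H2-Eb1) and 29 bases apart (H2-DMb1 and H2-DMb2).

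The labels were checked against the data before any comparison. All 6 B lineage markers were expressed, with a summed level of 21908 to 24041 CPM (counts scaled to a common library total) in the dKO libraries, against 22855 to 25921 CPM in the controls. The series text calls the cells pro-B cells, but 6 of 8 pro-B markers had means under 1 CPM and Kit had no count. The others were present: Il7r was at 6.98 to 15.4 CPM in the dKO libraries, against 3.97 to 9.56 CPM in the controls. Vpreb1 was at 1.27 to 2.28 CPM in the dKO libraries, against 1.31 to 2.73 CPM in the controls. The series text and the labels thus differ, and the values below are those of the cells under the B1a label. Of 10 markers of dendritic cells, which also make class II, Itgax, Zbtb46, Clec9a, Xcr1 and Siglech were under 1 CPM in every library, and the other 5 are given with the class II values further on. The libraries did differ in markers of follicular B-2 cells, the conventional recirculating B cells. The mean log2 CPM of 9 such markers was 5.44 to 6.07 in the dKO libraries, 5.73 in control 1, 7.21 in control 2, 5.50 in control 3 and 7.32 in control 4. B-1a markers were lowest in the same pair, at 4.27 in control 2 and 4.07 in control 4, against 5.45 to 5.62 in the dKO libraries, 5.12 in control 1 and 4.66 in control 3. In this score all 4 dKO libraries thus lay above every control, not only above that pair. The deleted microRNA genes (Mir15a, Mir15b, Mir16-1, Mir16-2) were at 0 counts in every library, and 3 counts equal 0.0854 to 0.111 CPM, so they gave no check of the genotype labels.

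None of the 10 class II genes passed in the comparison of dKO with control libraries. The levels of 9 genes spread more widely within the control group than within the dKO group, as did 71.1% of all genes tested. In edgeR's quasi-likelihood test, with Benjamini-Hochberg adjustment over 11363 genes and a threshold of 0.05, 0 of 10 were called, where 0.088% of all genes tested were called. None had an unadjusted p under 0.05 either, where 10.8% of all genes had one. DESeq2 and limma voom also called 0 of the 10, where they called 2.84% and 2.26% of all genes, and with 10 genes a count of 0 is close to these shares. In no case were the 2 groups apart, while they were apart for 6.96% of all genes tested. All 10 log2 fold changes were below 0 (−0.33 to −0.05, median −0.21), against a median of −0.02 and 52.3% below 0 over all genes. The 10 genes share the same libraries, and 9 of them turned to the other sign in a fit without 2 controls high in these genes, given further on.

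The class II chains were among the most abundant transcripts in every library, and controls 2 and 4 had the highest levels. H2-Aa, the alpha chain of I-A, stood at 11669, 10671, 10622 and 9775 CPM in dKO 1 to 4 and at 9796, 14459, 9014 and 14553 CPM in control 1 to 4. All 4 dKO libraries thus lay below control 2 and control 4, and 3 of them above control 1 and control 3. The fold change was 0.894 (95% interval 0.649 to 1.23, edgeR adjusted p = 0.85). H2-Ab1, its beta chain, stood at 8562, 7512, 7694 and 6468 CPM in dKO 1 to 4, against 6337, 10638, 5996 and 9926 CPM in control 1 to 4. Here each dKO library lay between the lower and the upper pair of controls. Its fold change was 0.919 (95% interval 0.651 to 1.30, edgeR adjusted p = 0.91).

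H2-Eb1, the beta chain of I-E, followed the same order. It stood at 6749, 6449, 5991 and 5545 CPM in dKO 1 to 4, against 5357, 9302, 4997 and 8430 CPM in control 1 to 4, with a fold change of 0.881 (95% interval 0.622 to 1.25, edgeR adjusted p = 0.84). The 4 dKO values again fell inside the gap between control 1 and control 4. Transcripts of its partner chain were nearly absent: H2-Ea-ps, the locus of the I-E alpha chain annotated as a pseudogene, was at 0 to 0.307 CPM in the dKO libraries, against 0 to 0.387 CPM in the controls. In mice of the H-2b haplotype this alpha chain is known not to be made, so that I-E does not reach the surface. The strain of these mice is not given in the labels.

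Cd74 was among the 4 most abundant genes in every library and took 1.62% to 2.49% of all counts in the dKO libraries and 1.47% to 2.85% in the controls. It stood at 22315, 19647, 23689 and 16884 CPM in dKO 1 to 4 and at 17380, 26014, 18907 and 28352 CPM in control 1 to 4. Control 4 and control 2 were again highest, and dKO 4 was the lowest of the 8. The fold change of 0.910 had a 95% interval of 0.650 to 1.27 (edgeR adjusted p = 0.89). Cd74 kept step with the chains: per length, it was at 0.691 to 0.868 times the summed level of H2-Aa, H2-Ab1 and H2-Eb1 in the dKO libraries and at 0.679 to 0.842 times in the controls.

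Ciita had the lowest level of the 10, and it was the gene in which a dKO library stood highest. It was at 70.1, 48.7, 54.7 and 26.9 CPM in dKO 1 to 4, against 35.5, 69.0, 41.0 and 62.4 CPM in control 1 to 4. The dKO libraries span both ends of the range, with dKO 1 above and dKO 4 below every control. The group means were close, 50.1 ± 17.9 CPM in the dKO libraries, against 52.0 ± 16.2 CPM in control libraries (SD, n = 4 each), and the fold change was 0.964 (95% interval 0.618 to 1.504, edgeR adjusted p = 0.98). Per length, the summed chains and Cd74 stood 3195, 4125, 3968 and 6533 times above Ciita in dKO 1 to 4, and 4979, 3972, 4300 and 4454 times above it in control 1 to 4. Both extremes of this ratio were thus dKO libraries, with the highest in dKO 4. Ciita counts ran from 791 to 2462 per library. A neighbouring gene on the other strand, Dexi, overlaps Ciita exons by 329 bases in GENCODE M21, and the sources used here do not say whether counting was by strand.

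**Figure D1:**
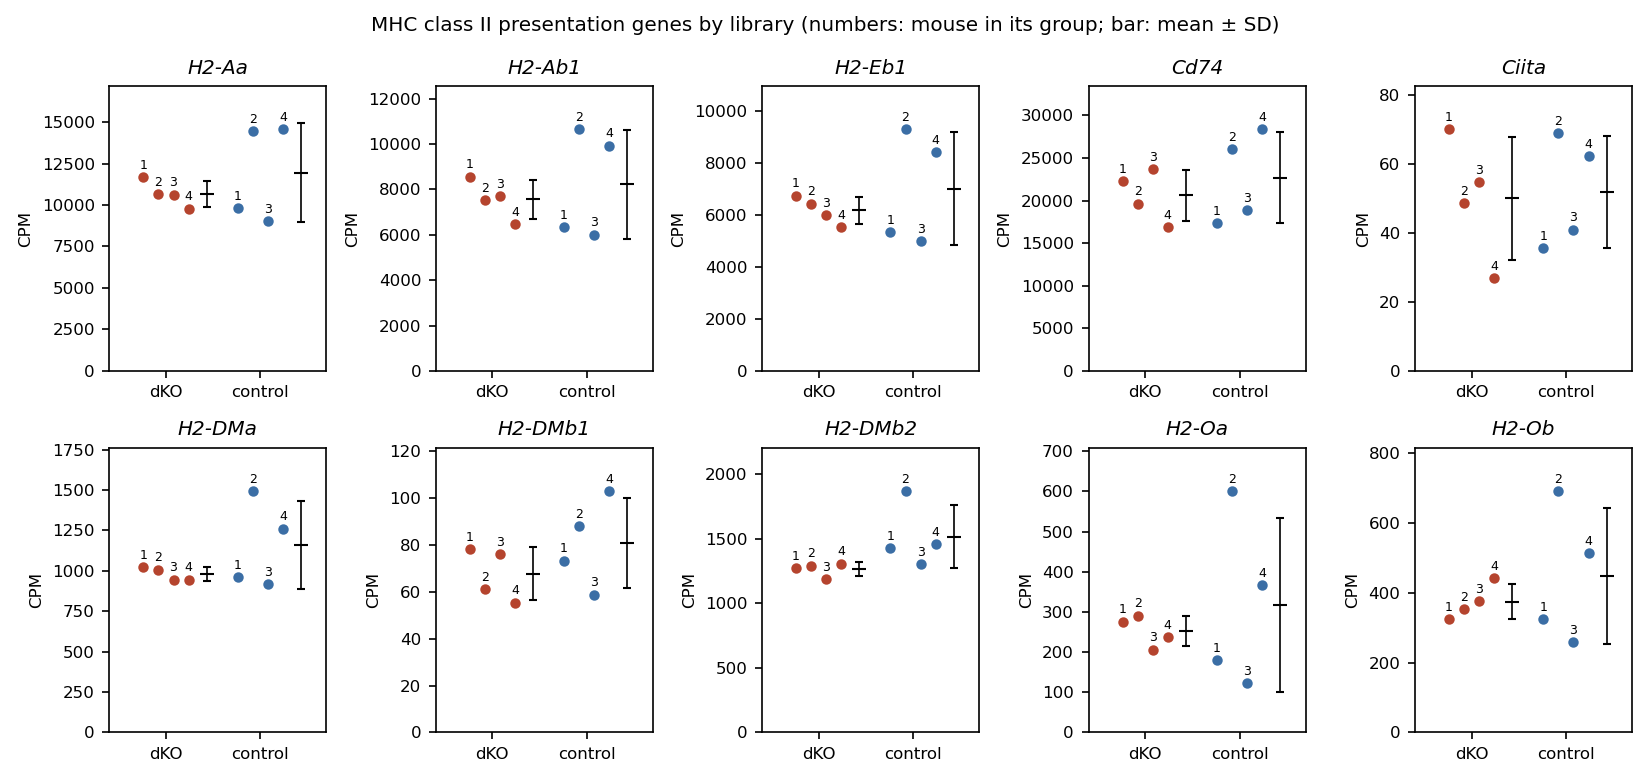
Level in CPM (linear axis from 0) of each of the 10 class II genes in the 4 dKO (red, left) and 4 control libraries (blue, right), with numbers giving the mouse in its group and bars the mean ± SD. Control 2 and control 4 are the 2 highest of the 8 libraries in 9 genes, and in Ciita dKO 1 is highest at 70.1 CPM.

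H2-DMa and H2-DMb2, the abundant peptide-loading genes, varied little among the dKO libraries, and H2-DMb1, given after them, varied more. H2-DMa, the alpha chain, stood at 1024, 1008, 945 and 945 CPM in dKO 1 to 4, against 962, 1494, 916 and 1261 CPM in control 1 to 4. The highest dKO library was 1.08 times the lowest, and the highest control 1.63 times the lowest. The fold change was 0.846 (95% interval 0.640 to 1.12, edgeR adjusted p = 0.71). H2-DMa shares 360 exon bases with Brd2 on the other strand. Brd2 was at 16.0 to 29.7 CPM in the dKO libraries, against 17.5 to 40.4 CPM in the controls. H2-DMb2, a beta chain, stood at 1273, 1291, 1183 and 1305 CPM in dKO 1 to 4, against 1426, 1868, 1303 and 1458 CPM in control 1 to 4. The groups met only through dKO 4, which lay just above control 3. With a fold change of 0.834 (95% interval 0.651 to 1.07) H2-DMb2 had the smallest p of the 10 genes, 0.14 unadjusted and 0.63 adjusted in edgeR.

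H2-DMb1, the second beta chain gene, was at 78.1, 61.2, 76.1 and 55.3 CPM in dKO 1 to 4 and at 73.2, 88.0, 58.7 and 103 CPM in control 1 to 4. Its highest dKO library was 1.41 times the lowest, and its highest control 1.75 times the lowest. The groups overlapped widely (fold change 0.838, 95% interval 0.628 to 1.12, edgeR adjusted p = 0.71). Per length, H2-DMb2 stood 15.3 to 23.3 times above H2-DMb1 in the dKO libraries and 13.97 to 21.9 times above it in the controls. The 2 genes are close copies: 27.2% of the 50-base windows of the H2-DMb1 transcript are also found in H2-DMb2, so reads from either can be lost or misplaced in counting and the small H2-DMb1 counts are uncertain.

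The DO genes had the widest spread of the 10 among the controls, where the highest was 4.92 (H2-Oa) and 2.67 (H2-Ob) times the lowest. Among the dKO libraries Ciita had the widest, at 2.60 times. H2-Oa, the DO alpha chain, stood at 276, 290, 206 and 237 CPM in dKO 1 to 4, against 181, 601, 122 and 367 CPM in control 1 to 4. All 4 dKO libraries lay above control 1 and control 3 and below control 2 and control 4, and control 2 was 4.92 times control 3. The fold change of 0.794 therefore had the widest interval of the 10, 0.410 to 1.54 (edgeR adjusted p = 0.85). H2-Ob, the beta chain, stood at 325, 354, 376 and 443 CPM in dKO 1 to 4, against 325, 692, 260 and 513 CPM in control 1 to 4. Again no dKO library reached control 4 or control 2 (fold change 0.837, 95% interval 0.554 to 1.27, edgeR adjusted p = 0.81). H2-Oa shares 321 exon bases with BC051537 on the other strand, but that gene was at 0.186 to 0.541 CPM in the dKO libraries, against 0.109 to 1.26 CPM in the controls.

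The balance of loading chaperone to inhibitor followed from this. Summed per length, the DM chains stood at 4.17, 3.90, 4.41 and 3.97 times the DO chains in dKO 1 to 4, and at 5.68, 2.80, 7.20 and 3.51 times in control 1 to 4. The dKO libraries were alike and lay inside the control range, with log2 ratios of 2.04 ± 0.08 in the dKO libraries and 2.16 ± 0.62 in control libraries (SD, n = 4 each). Within DO, H2-Ob was at 0.481 to 0.761 times H2-Oa in the dKO libraries and at 0.469 to 0.865 times in the controls. The chains of I-A kept a narrower ratio, with H2-Ab1 at 0.616 to 0.683 times H2-Aa in the dKO libraries and 0.602 to 0.685 times in the controls. These ratios are given as values, without a test.

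**Figure D2:**
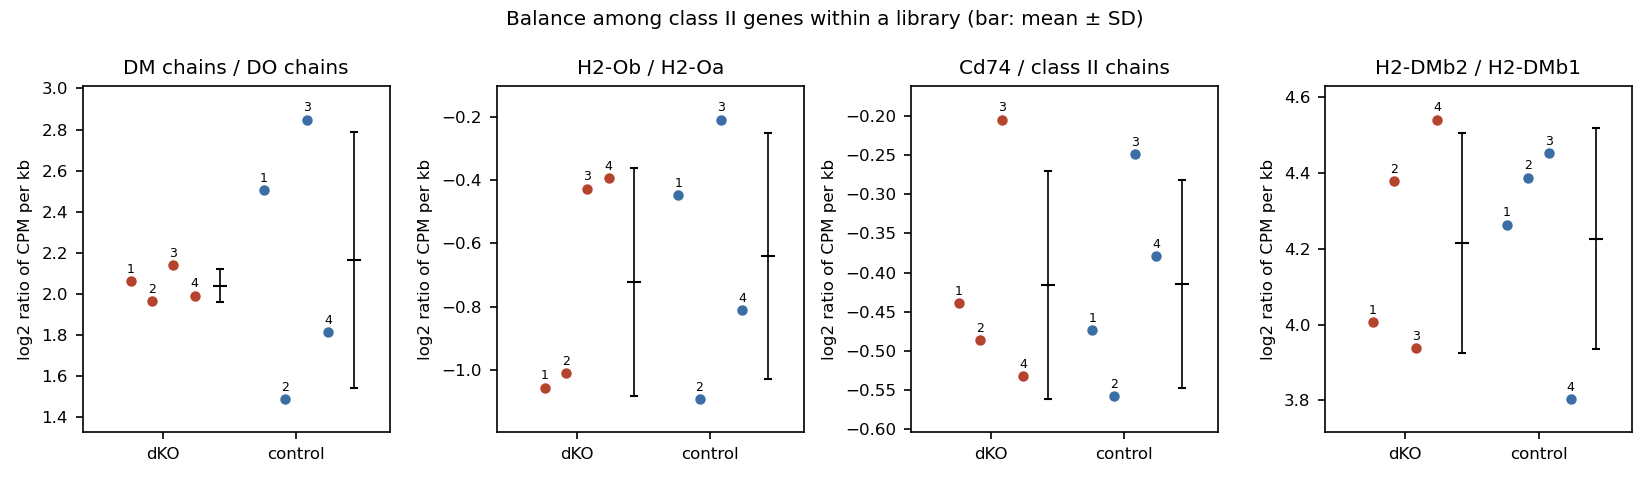
Log2 ratios of length-scaled levels within each library, one panel per ratio with its own axis, for the dKO (red, left) and control libraries (blue, right), numbered by mouse, with the mean ± SD beside them. The dKO values of the DM to DO ratio sit between 1.96 and 2.14, while the controls run from 1.49 in control 2 to 2.85 in control 3.

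The order of the 10 genes by level was the same in all 8 libraries. In CPM per kb of the principal transcript (mean ± SD, n = 8 libraries), Cd74 came first with 15354 ± 2949, followed by H2-Aa with 10035 ± 1876, H2-Ab1 with 6511 ± 1407 and H2-Eb1 with 3956 ± 914. The DM chains H2-DMb2 (975 ± 149) and H2-DMa (645 ± 123) came next. Then came H2-Oa with 262 ± 136, H2-Ob with 154 ± 51.5 and H2-DMb1 with 52.8 ± 11.4, and Ciita closed the order at 8.50 ± 2.64 CPM per kb. The ranges over libraries overlapped for the neighbours Cd74 and H2-Aa, H2-Aa and H2-Ab1, H2-Ab1 and H2-Eb1, H2-DMb2 and H2-DMa, and H2-Oa and H2-Ob, and were apart for the other 4 pairs of neighbours. Transcript lengths are from GENCODE M21, another annotation than the one the counts were made with.

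The direction of the difference between genotypes turned on control 2 and control 4. They were the 2 highest libraries in 9 of the 10 genes, so leaving them out raises these fold changes by construction. Without both of them, 9 of the 10 log2 fold changes were above 0, with a median of 0.22 against 0.04 over all genes, where 53.4% were above 0. That share covers genes whether or not they are high in these libraries, so it is not a like baseline. H2-Oa was then at 0.74 (adjusted p = 0.17), Ciita at 0.39 and H2-Ob at 0.36 on the log2 scale, while H2-DMb2 stayed below 0 at −0.11 (edgeR adjusted p = 0.60 for Ciita, 0.40 for H2-Ob and 0.82 for H2-DMb2). In that fit 0 of the 10 genes were called, against 0.499% of all genes tested. With the follicular B-2 marker score as a covariate 8 of the 10 were above 0, with a median of 0.14 and again none called. That score was 7.21 in control 2 and 7.32 in control 4, against 5.44 to 6.07 in the other libraries. The covariate thus sets apart the same 2 libraries and gives no independent support for the change of sign. Both libraries have the high follicular B-2 markers, and the part of such cells in the class II levels was not tested. B-1a markers differed between the genotypes beyond these 2 libraries. With all 8 libraries 10 of 10 were above 0 (median 0.76), and edgeR called 1, where it called 0.088% of all genes. Without both controls 9 of the 10 B-1a markers stayed above 0 (median 0.57), and 0 were called. In sorted bulk samples, fewer cells of a type and less RNA per cell cannot be told apart.

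**Figure D3:**
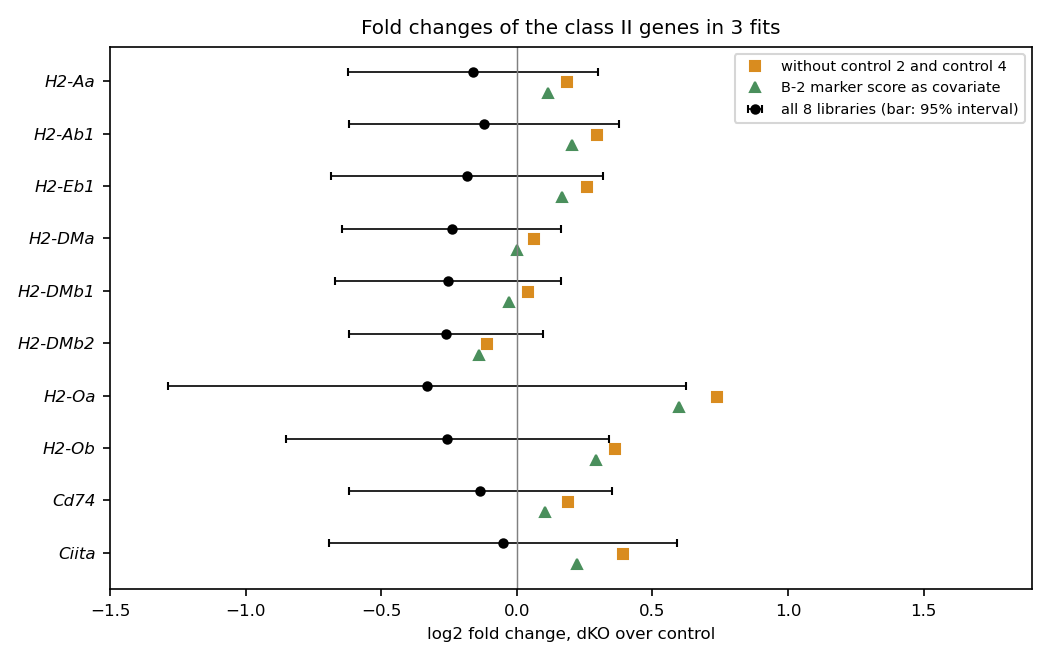
Log2 fold change of dKO over control for each class II gene, with all 8 libraries (black, bar: 95% interval), without control 2 and control 4 (orange squares) and with the follicular B-2 marker score as a covariate (green triangles). All black points lie between −0.33 and −0.05 with intervals that cross 0, and the orange squares lie above 0 except for H2-DMb2. The marker score is highest in control 2 and control 4, so both alternative fits set apart the same libraries.

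Markers of other cells that can present antigen on class II did not all vary in 1 order. Lyz2, a lysozyme gene, stood at 990, 2104, 390 and 1000 CPM in dKO 1 to 4 and at 2876, 507, 1570 and 5041 CPM in control 1 to 4, so that control 2, with high class II, had the lowest control level. Ly6c2, a monocyte marker, was instead highest in the libraries with high class II, at 49.8, 59.5, 35.01 and 70.2 CPM in dKO 1 to 4, against 57.65, 200.4, 23.2 and 80.3 CPM in control 1 to 4. C1qa was at 13.6 to 51.9 CPM in the dKO libraries, against 12.998 to 92.8 CPM in the controls, Cd68 at 57.9 to 98.3 CPM in dKO against 24.3 to 77.6 CPM in controls, and Adgre1 at 12.4 to 20.2 CPM in dKO against 5.19 to 44.4 CPM in controls. Their highest libraries were control 4 (C1qa), dKO 2 (Cd68) and control 3 (Adgre1). Summed over all 9 macrophage and monocyte markers the range was 527 to 2350 CPM in the dKO libraries, against 758 to 5280 CPM in the controls. Csf1r, which defines these cells, was at most 1.86 CPM in the dKO libraries, against 1.82 CPM in the controls. The summed 10 dendritic cell markers, most of it Bst2, which is not particular to those cells, ran from 182 to 261 CPM in the dKO libraries and from 202 to 287 CPM in the controls. Flt3 was highest in control 4 and control 2, at 0.859 to 4.94 CPM in the dKO libraries, against 0.583, 5.89, 0 and 7.21 CPM in control 1 to 4. Cd209a (4.74 to 20.95 CPM in dKO, against 5.12 to 41.4 CPM in controls), Batf3 (2.58 to 6.27 CPM in dKO, against 3.03 to 10.7 CPM in controls) and Ccr9 (3.08 to 5.05 CPM in dKO, against 2.93 to 6.92 CPM in controls) were highest in control 4 (Cd209a) and control 1 (Batf3 and Ccr9). Lymphocyte markers outside the B lineage were lowest in control 3 as summed lists. The mean log2 CPM of 7 T cell markers was 3.09 to 4.02 in the dKO libraries, against 3.195, 4.22, 1.63 and 3.85 in control 1 to 4. That of the 5 tested NK cell markers was 2.05 to 2.75 in the dKO libraries, against 0.22, 2.94, −0.75 and 2.26 in control 1 to 4. In the fit without control 2 and control 4, all 7 T cell markers and all 5 tested NK cell markers were above 0, with medians of 1.23 and 1.98. The part of any of these cells in the class II levels was not tested.

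**Figure D4:**
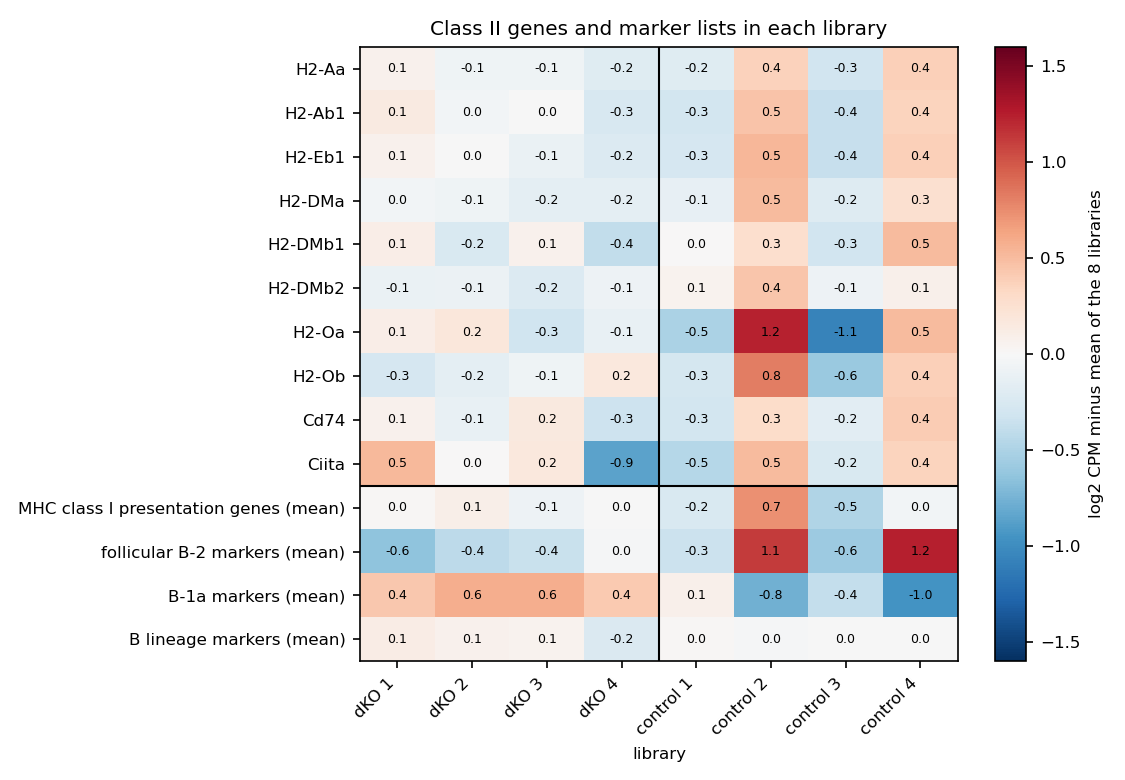
Log2 CPM of each class II gene, and mean log2 CPM of 4 gene lists, minus the mean of the 8 libraries (colour and printed value), with the dKO libraries on the left and the controls on the right. The columns of control 2 and control 4 are above the mean for all 10 genes and for follicular B-2 markers, and below it for B-1a markers.

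Genes with a profile like that of the class II genes were looked up by the root mean square difference of centred log2 CPM over the 8 libraries. For the sum of H2-Aa, H2-Ab1, H2-Eb1 and Cd74 the 3 nearest of 10940 genes outside the 10 included Akap8l (0.073) and Pptc7 (0.098), where the profile itself had an SD of 0.27. Among the 10, H2-DMa (0.12) and H2-DMb1 (0.13) lay nearest to this sum among those not part of it, and H2-Oa (0.46) farthest. For Ciita, with an SD of 0.49, the nearest of 8631 genes were Smurf1 (0.15), Epc2 (0.17) and Pikfyve (0.18). Each of these genes shares the libraries and their scaling with the class II genes.

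Further genes of the pathway were set in lists, and none of their 34 tested genes was called in edgeR in either direction, while DESeq2 called 2 and limma voom 1, where the share of all genes called was 0.088% in edgeR, 2.84% in DESeq2 and 2.26% in limma voom. At an unadjusted p under 0.05 stood 5 of the 34 (14.7%), where 10.8% of all genes tested did. H2-Eb2, a further class II beta chain gene, was at 5.58, 7.20, 7.66 and 10.0 CPM in dKO 1 to 4, against 5.21, 21.7, 6.09 and 14.96 CPM in control 1 to 4, again with control 2 and control 4 highest (log2 fold change −0.66 ± 0.42, SE, edgeR adjusted p = 0.64). The 7 genes of the factors that bind the X and Y boxes had a median of −0.01, with 3 above and 4 below 0. Rfxap, a subunit of RFX, had the smallest p among them, at 48.4 ± 3.05 CPM in the dKO libraries, against 58.7 ± 5.94 CPM in control libraries (SD, n = 4 each, edgeR adjusted p = 0.49). Nfyb, a subunit of NF-Y, came next, at 47.3 ± 6.40 CPM in the dKO libraries, against 60.6 ± 22.2 CPM in control libraries (SD, n = 4 each, edgeR adjusted p = 0.63).

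Of 14 known regulators of Ciita, 4 had a log2 fold change above and 10 below 0, with a median of −0.29. Prdm1, which encodes Blimp-1, a repressor of Ciita in plasma cells, had the smallest p. It was at 3.84, 5.24, 4.47 and 4.12 CPM in dKO 1 to 4, against 2.81, 0.707, 2.11 and 1.41 CPM in control 1 to 4, and the groups did not overlap, as in 6.96% of all genes. Summed plasma cell markers, which include Prdm1, were at 125 to 213 CPM in the dKO libraries, against 170 to 206 CPM in the controls, and the part of such cells was not tested. The log2 fold change of 1.33 ± 0.39 (SE) had an edgeR adjusted p of 0.20 and a DESeq2 adjusted p of 0.048. Prdm1 was not alone among the pathway genes in having its groups apart. Nfyc, an NF-Y subunit from another list, was at 36.3 to 45.2 CPM in the dKO libraries, against 32.8 to 36.2 CPM in the controls. Ifngr2, a chain of the interferon gamma receptor, was at 67.3 ± 7.60 CPM in the dKO libraries, against 85.1 ± 9.40 CPM in control libraries (SD, n = 4 each, edgeR adjusted p = 0.42). The Ifngr2 groups were also apart, at 56.6 to 74.4 CPM in dKO against 76.5 to 94.4 CPM in controls. Irf8, a transcription factor of B cells in the same list, was chosen after its values were seen: it stood at 54.3, 44.4, 72.8 and 101 CPM in dKO 1 to 4, and at 58.5, 216, 63.3 and 223 CPM in control 1 to 4. Its 2 high libraries are those with the high class II genes (edgeR adjusted p = 0.52).

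Of 9 endosomal processing genes 3 were above and 6 below 0, with a median of −0.19. Ctss, the cathepsin that trims the invariant chain in B cells, was at 824, 861, 714 and 976 CPM in dKO 1 to 4, against 1180, 1395, 848 and 1431 CPM in control 1 to 4. Control 3 lay among the dKO libraries and the other controls above all 4 (log2 fold change −0.52 ± 0.20, SE, edgeR adjusted p = 0.34). Ctsl, another cathepsin, was at 7.71 ± 4.48 CPM in the dKO libraries, against 14.5 ± 4.41 CPM in control libraries (SD, n = 4 each, edgeR adjusted p = 0.42), and limma voom called it (0.039). Cd44, which partners with Cd74 on the surface and is also a marker of activated cells, was at 75.8, 63.6, 87.6 and 108 CPM in dKO 1 to 4, against 40.2, 67.8, 50.5 and 36.4 CPM in control 1 to 4. The groups met through dKO 2 and control 2, the log2 fold change was 0.78 ± 0.22 (SE, edgeR adjusted p = 0.19), and DESeq2 called it (0.046). Cd83, which slows the turnover of class II at the surface, was at 80.7 ± 18.5 CPM in the dKO libraries, against 107 ± 46.9 CPM in control libraries (SD, n = 4 each, edgeR adjusted p = 0.71).

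**Figure D5:**
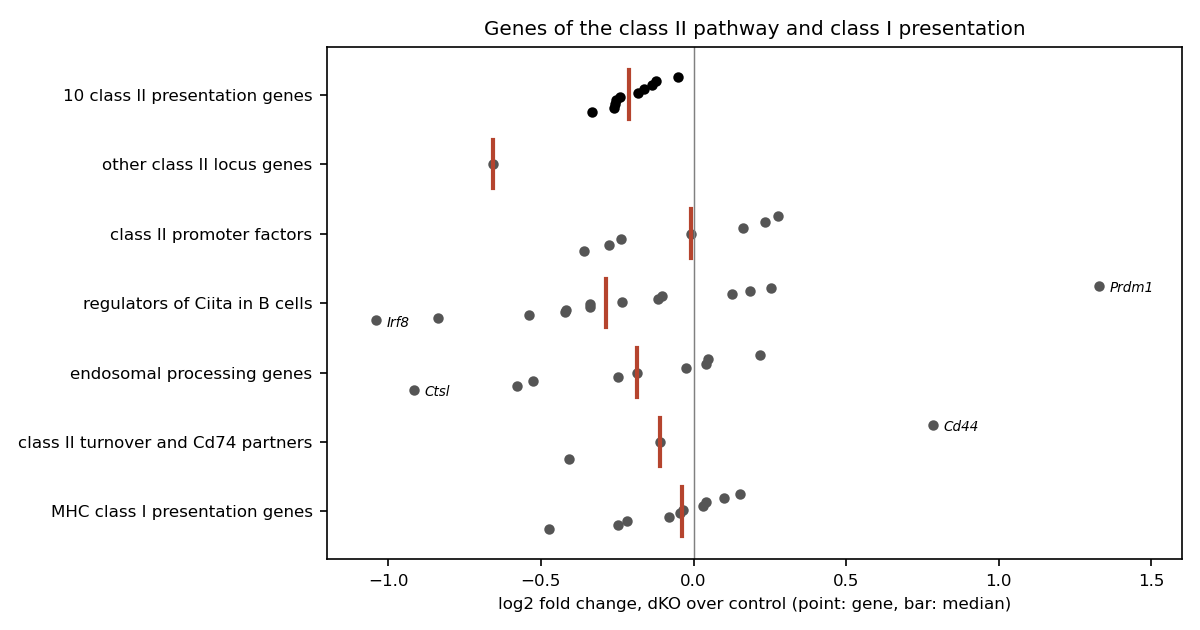
Log2 fold change of dKO over control (horizontal axis) for each tested gene (point) of the 10 class II genes, of the pathway lists and of MHC class I presentation, with the median of each list as a red bar. The class II genes cluster between −0.33 and −0.05, and Prdm1 at 1.33 and Cd44 at 0.78 stand to the right.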

How the data were processed

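Bone marrow B cells of 4 dKO and 4 control mice were grouped by their titles, and table columns were assigned by the codes in the sample descriptions; 3 columns of means and differences were not used. The authors' table holds whole-number counts for each gene, not normalized. The submitters' processing notes name Trimmomatic, STAR, featureCounts and GRCm39; versions, annotation and strand setting are not stated in what was used here. Among counts below 20, 72.7% to 77.3% per library were even, as when both mates are counted, so fits were repeated on halved counts.

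After filterByExpr, 11363 genes were fitted with TMM scaling in edgeR 4.0.16 under R 4.3.3 (quasi-likelihood F test, robust, genotype as the only term), in a script checked on simulated counts. Intervals are 95% and use the standard error from the F statistic. Log2 CPM used a prior count of 2. Floors of 3 counts cover counting error only. The labels give separate samples, and the series text gives separate mice. Libraries of one group differed by 31.3 to 321 times counting noise (chi-square over its degrees of freedom), so none was a duplicate. DESeq2 1.42.0 and limma 3.58.1 served as alternatives.

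The genes, lists and alternatives were chosen with earlier results of these data known. Named pathway genes are the 2 with the smallest p per list and any called; likeness was the root mean square difference of centred log2 CPM among genes whose SD was at least that of the profile divided by 2. Of the list genes, H2-Ea, Marchf1, Marchf8 and Ighd were not analysed here, and 1 gene found by likeness is not reported here.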

Additional observations from a re-analysis of the deposited data

Results flagged for a closer look

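Of 56 groups of 4 libraries examined for a library far from the other 3, 1 was flagged. That is a smaller share than the 1 in 20 or so that chance gives. Tap1, a subunit of the transporter that feeds peptides to MHC class I, was at 20.6 to 29.1 CPM in the dKO libraries, against 78.2 CPM in control 2 and 21.4, 17.4 and 27.0 CPM in the other controls. The gap to the next control was 0.842 of the range of the controls.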

How the results depend on the processing

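Of 180 values of the 10 class II genes under 18 alternatives, 0 were called (smallest adjusted p 0.17) and 156 kept their direction. Without both control 2 and control 4, log2 fold changes turned to 0.19 (H2-Aa), 0.30 (H2-Ab1), 0.26 (H2-Eb1), 0.064 (H2-DMa), 0.040 (H2-DMb1), 0.74 (H2-Oa), 0.36 (H2-Ob), 0.19 (Cd74), 0.39 (Ciita), 0.43 (H2-Eb2), 0.23 (Cd83) and 0.42 (Tap1). With the B-2 marker score as covariate they turned to 0.11 (H2-Aa), 0.20 (H2-Ab1), 0.17 (H2-Eb1), 0.00016 (H2-DMa), 0.60 (H2-Oa), 0.29 (H2-Ob), 0.10 (Cd74), 0.22 (Ciita), 0.27 (H2-Eb2), 0.17 (Cd83) and 0.26 (Tap1). With 1 library left out, H2-Ab1 ran from −0.25 to 0.027, H2-Oa from −0.60 to 0.18, H2-Ob from −0.45 to 0.034, Ciita from −0.26 to 0.15 and Tap1 from −0.70 to 0.24. The high ends were without control 2 except for Ciita, which turned without control 2 (0.11), without control 4 (0.05), without dKO 4 (0.15) and in limma voom (0.11). The median of the 10 was 0.22 without both controls and 0.14 with the covariate, and lay between −0.32 (without control 3) and −0.04 (without control 2) with 1 library left out. The cause was not tested. Over all genes edgeR called 10 genes, 4 to 98 with 1 library left out (98 without control 1, 18 without control 2, 30 without control 3, 4 without dKO 2, dKO 3 or dKO 4), 59 without both control 2 and control 4, 40 without a filter and 75 at an adjusted p under 0.1, and DESeq2 called 322 and limma voom 257. Of the pathway genes DESeq2 called 2 and limma voom 1. The replicate block called 9 genes and 0 of the 10, with a median of −0.13. Deviations of same-numbered libraries correlated at −0.07 to 0.15, and 1 of the 4 dKO libraries correlated best with its own number. No pairing by number was seen, though so few weak correlations cannot exclude it. No scaling moved the median of all genes by over 0.1. Counts were 791 or more per class II gene and library, so the spread between libraries, not depth, was the limit. With 1 library per mouse, differences between mice, sorting and amplification cannot be told apart in that spread.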

Other observations

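MHC class I presentation, the parallel system for peptides from the cytosol, was highest in control 2: the mean log2 CPM of 10 genes was 8.03 to 8.20 in the dKO libraries, and 7.87, 8.85, 7.63 and 8.07 in control 1 to 4. H2-K1, a class I heavy chain, stood at 2305, 2889, 1996 and 2610 CPM in dKO 1 to 4 and at 1842, 5315, 1710 and 2527 CPM in control 1 to 4 (log2 fold change −0.22 ± 0.33, SE, edgeR adjusted p = 0.88). B2m, the light chain of all class I molecules, was at 9038 to 15323 CPM in the dKO libraries, against 18212 CPM in control 2 and 9103 to 11299 CPM in the other controls. Psmb8, an immunoproteasome subunit, averaged 1457 ± 128 CPM in the dKO libraries, against 1728 ± 305 CPM in control libraries (SD, n = 4 each, edgeR adjusted p = 0.69). Of the 10 class I genes 0 were called in edgeR, 0 had an unadjusted p under 0.05 (0.088% and 10.8% of all genes tested), and the median log2 fold change was −0.04. Without control 2 and control 4 the class I median was 0.35, with 9 of the 10 above 0, against 4 with all libraries. The class II median in that fit was 0.22, also with 9 of the 10 above 0, so that count was not particular to class II. Control 2 had the highest class I mean, so leaving it out raises class I fold changes by construction. Control 4, at 8.07, lay within the dKO range of that mean, unlike for class II. Irf1, which acts downstream of interferon, was also highest in control 2. It was at 58.9 to 79.9 CPM in the dKO libraries, against 193 CPM in control 2 and 53.3 to 71.7 CPM in the other controls. B2m, Irf1 and H2-K1 were chosen after their values were seen.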
